A study of Rattus norvegicus with 9 samples.

Results

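The genes described here act in G2, in mitosis and at the kinetochore. They were chosen by symbol from a list of 35, drawn up with earlier results of these data known. Of these, 34 were present among the 17315 genes of the deposited count tables, and Cenpe, a kinetochore motor, was skipped because its symbol was absent from those tables. RNA was sequenced from horizontal basal cells of SD rat (Rattus norvegicus), grown as primary cultures of olfactory epithelium and used at passage 7, so the values describe cultured cells and not the tissue. Cultures were given 0.1% DMSO as the vehicle, labelled time 0 h, or 50 nM PMA for 6 h or 12 h, with 3 libraries in each group. PMA, phorbol 12-myristate 13-acetate, is a phorbol ester that activates protein kinase C. No genetic change is named for any group, and the age and sex of the rats are not given in the labels. Vehicle libraries at 6 h or 12 h are not among the samples, and the labels do not state whether the PMA cultures also received DMSO, so the effects of PMA, solvent and time in culture cannot be told apart. What a replicate number stands for, a culture, an animal or a repeat preparation, is not stated. P-values therefore measure the spread between these libraries, which may be technical.

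A cell enters mitosis through cyclins A and B with the kinase Cdk1 and through the Aurora and Polo kinases. Kinesin motors build its spindle, kinetochores hold chromosomes to microtubules, and a checkpoint waits until every kinetochore is attached. Most of these genes are transcribed together late in the cell cycle, switched on by the MuvB core with B-Myb (Mybl2) and Foxm1. In resting cells the same core, within the DREAM complex, holds them off, mainly through a promoter element named CHR, the cell cycle genes homology region. Horizontal basal cells are a reserve of stem cells for the olfactory lining. They rest in uninjured tissue and divide after severe injury and in culture.

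Library depth lay between 13601635 and 19001819 reads in genes. The labelled cell type was checked on Krt5, Krt14 and Tp63. In the vehicle libraries these stood at 5920 to 7510, 5020 to 5510 and 202 to 250 CPM. CPM are counts per 1000000 of the library total multiplied by its TMM factor, edgeR's scaling factor for each library. Of the markers of other cell types, 9 of 11 neuronal, 5 of 5 sustentacular and gland, 7 of 9 fibroblast and pericyte, 4 of 7 immune and 6 of 7 endothelial and glial genes stayed under 1 CPM in every library. Ptprc, Sox10, Pdgfrb, Col1a2 and Neurog1 were at 0 throughout. The summed level of the 8 horizontal basal cell markers was 14800 to 17000 CPM with vehicle, 2490 to 3000 CPM at 6 h of PMA and 3920 to 4570 CPM at 12 h. With vehicle this sum came mostly from Krt5 and Krt14, which had log2 fold changes of -4.08 and -2.77 at 6 h and -3.80 and -2.39 at 12 h. Of the 8 genes, 6 were lower and 1 higher at 6 h, and 5 lower and 2 higher at 12 h, the higher ones being Icam1 (0.30 at 6 h and 1.33 at 12 h) and Egfr (0.64 at 12 h). The immune list, mostly Cd68, stood at 26.7 to 29.2, 70.9 to 72.9 and 83.7 to 95.7 CPM over the same 3 groups. Of its 3 tested genes Cd68 was higher (1.83 and 2.13) and Cd14 lower (-2.40 and -1.25) at both times. The endothelial and glial list stood at 0.425 to 0.863, 0.881 to 1.68 and 2.11 to 4.16 CPM. Its tested gene Kdr had no read with vehicle, 0.761, 0.441 and 0.694 CPM at 6 h and 1.91, 1.96 and 3.64 CPM at 12 h, and passed as higher at both times. Of the neuronal list Ncam1 was higher at 12 h (2.54). The part of these shifts in the results on the mitosis genes was not tested.

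The promoters of the mitosis genes are shown first, since the list rests on genes that are known to be switched together. RefSeq promoter sequences (build GRCr8, 250 bases before to 50 bases after the first listed start) were found for 27 of the 34 genes; Aurkb, Ccna2, Cenpt, Foxm1, Pbk, Tpx2 and Ube2c had no entry. The CHR words TTTGAA or TTCGAA, searched on both strands, occurred in 19 of the 27 promoters (70.4%), against 19.5% of all 27457 rat promoters of that length. The CCAAT box, CCAAT on either strand, occurred in 17 of 27 (63.0%), against 37.7% of all promoters. Both words occurred together in 13 of 27 (48.1%), against 7.83% of all promoters. The E2F word GCGGGAA, on either strand, occurred in 1 of 27 (3.7%), that of Kif23, against 4.47% of all promoters. None of these words is contained in another. The printed stretches are the 250 bases before the start, in the direction of transcription. Cenpf, Kif2c and Kif15 are the 3 genes with a promoter entry that had the largest fitted falls at 12 h of PMA, and Nusap1, Kif23 and Aurka the 3 with the smallest. Cdk1 and Ccnb2 were added after the search because their promoters hold several words of both kinds. Capitals mark CHR words and CCAAT boxes on either strand.
Cenpf: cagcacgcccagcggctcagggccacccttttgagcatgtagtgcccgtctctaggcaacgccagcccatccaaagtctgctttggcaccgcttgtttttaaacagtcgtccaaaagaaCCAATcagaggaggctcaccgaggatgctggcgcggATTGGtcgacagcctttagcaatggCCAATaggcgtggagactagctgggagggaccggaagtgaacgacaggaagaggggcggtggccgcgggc
Kif2c: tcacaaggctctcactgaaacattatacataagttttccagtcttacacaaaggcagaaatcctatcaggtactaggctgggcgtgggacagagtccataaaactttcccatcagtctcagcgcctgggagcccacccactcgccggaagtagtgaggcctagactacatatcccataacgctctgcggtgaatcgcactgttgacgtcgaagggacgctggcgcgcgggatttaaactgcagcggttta
Kif15: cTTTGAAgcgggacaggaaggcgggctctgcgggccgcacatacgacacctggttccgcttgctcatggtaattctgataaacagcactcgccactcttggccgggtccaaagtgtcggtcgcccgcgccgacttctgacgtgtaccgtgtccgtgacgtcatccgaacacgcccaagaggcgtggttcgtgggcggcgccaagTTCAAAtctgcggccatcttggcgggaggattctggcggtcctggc
Cdk1: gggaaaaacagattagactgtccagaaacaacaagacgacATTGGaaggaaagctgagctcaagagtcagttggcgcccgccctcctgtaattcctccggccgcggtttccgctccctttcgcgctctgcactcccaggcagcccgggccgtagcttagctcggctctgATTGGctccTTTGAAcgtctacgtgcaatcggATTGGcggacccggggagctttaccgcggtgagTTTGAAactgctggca
Ccnb2: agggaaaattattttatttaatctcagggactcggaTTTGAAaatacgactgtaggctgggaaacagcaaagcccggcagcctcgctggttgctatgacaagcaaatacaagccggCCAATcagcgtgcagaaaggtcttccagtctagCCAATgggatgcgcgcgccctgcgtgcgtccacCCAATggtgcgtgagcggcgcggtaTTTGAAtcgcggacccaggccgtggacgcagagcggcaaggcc
Nusap1: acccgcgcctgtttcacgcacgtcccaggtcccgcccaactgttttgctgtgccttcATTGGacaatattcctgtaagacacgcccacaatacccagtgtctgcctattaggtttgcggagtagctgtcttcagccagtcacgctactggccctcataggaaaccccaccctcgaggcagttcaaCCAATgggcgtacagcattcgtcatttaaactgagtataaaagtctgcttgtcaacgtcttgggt
Kif23: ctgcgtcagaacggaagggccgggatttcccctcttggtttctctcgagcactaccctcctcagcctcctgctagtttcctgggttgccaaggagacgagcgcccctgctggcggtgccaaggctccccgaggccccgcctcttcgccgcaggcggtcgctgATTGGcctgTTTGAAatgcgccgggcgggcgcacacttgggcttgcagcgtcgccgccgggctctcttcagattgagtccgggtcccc
Aurka: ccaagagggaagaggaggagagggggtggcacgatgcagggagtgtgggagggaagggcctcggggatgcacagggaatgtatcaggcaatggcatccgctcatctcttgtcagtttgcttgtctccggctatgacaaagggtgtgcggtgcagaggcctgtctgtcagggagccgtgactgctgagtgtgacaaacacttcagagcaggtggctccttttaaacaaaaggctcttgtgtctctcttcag
On the minus strand lie those of Cenpf at chr13:103760887-103761136 and Kif2c at chr5:135899213-135899462. That of Kif15 lies at chr8:131479154-131479403 and that of Cdk1 at chr20:19265043-19265292, both on the plus strand. That of Ccnb2 lies at chr8:79981659-79981908 on the minus strand and that of Nusap1 at chr3:127057045-127057294 on the plus strand. Those of Kif23 at chr8:71320585-71320834 and Aurka at chr3:181560770-181561019 lie on the minus strand. The stretch of Cdk1 held 2 CHR words and 3 CCAAT boxes, and that of Ccnb2 also 2 and 3. Cenpf and Nusap1 had no CHR word in the printed bases, but each had 1 that reached into or lay in the 50 bases after the start, as did the E2F word of Kif23. The stretches of Kif2c and Aurka, one from each end of the range of falls, held none of these letters. A match is a description of letters and not a binding site, and the factors were not measured on the DNA.

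In vehicle cultures the mitosis genes were all read, but at levels that differed widely between the 3 libraries. Mki67, the antigen used to mark cycling cells, had 55.2, 120 and 217 CPM in vehicle replicates 1, 2 and 3. Top2a, the topoisomerase that untangles sister chromatids, had 68.2, 154 and 296 CPM, and Cdk1 had 36.0, 67.4 and 112 CPM in the same order. All 34 genes were lowest in replicate 1 and highest in replicate 3, an order that 25.6% of all 10128 tested genes had. The ratio of the highest to the lowest vehicle library ran from 1.99 for Mybl2 to 6.59 for Cenpf with a median of 3.80, against a median of 1.18 over all tested genes. It was 2 or more for 33 of the 34, against 8.34% of all tested genes. The median coefficient of variation was 61.4% for the mitosis genes and 8.91% for all tested genes.

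The steps between the vehicle libraries were of unequal size from gene to gene. Replicate 2 was a median of 2.14 times replicate 1 over the 34 genes, and replicate 3 a median of 1.80 times replicate 2. The ratio of replicate 3 to replicate 1 was largest for Cenpf at 6.59, Nusap1 at 6.06, Ccnb2 at 5.20, Ccnb1 at 4.96 and Ube2c at 4.56. It was smallest for Mybl2 at 1.99, Cit at 2.54, Hjurp at 2.58, Ect2 at 2.79 and Aurkb at 2.88. In all, 289 of the 10128 tested genes shared this order with a ratio of 2 or more. Of these, 33 were members of the list (11.4%). With 54 of the 104 tested genes of the other mitosis lists described below, the share was 30.1%. Those lists were uneven, with 20 of 29 other kinetochore and centromere genes and 18 of 22 other spindle and cytokinesis genes. The pattern was also held by 5 of 12 condensin, cohesin and separase genes and 8 of 14 other entry regulators. It was held by 2 of 17 genes of the anaphase-promoting complex list and 1 of 10 of the DREAM and MuvB list. The summed level of the 34 genes was 714, 1430 and 2550 CPM in vehicle replicates 1, 2 and 3. Without the TMM factors of 1.31, 1.28 and 1.29, the reads of the 34 genes were 0.0937%, 0.184% and 0.328% of the raw reads in genes. The basal cell marker Krt5 stood at 5920, 7510 and 7050 CPM, Krt14 at 5450, 5510 and 5020 CPM and Tp63 at 250, 205 and 202 CPM in these libraries. Depth was 17659221, 18118499 and 14626173 reads in genes. The part of depth or of the labelled replicate in the spread was not tested, and a larger share of dividing cells and more RNA of these genes per cell cannot be told apart in bulk libraries.

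**Figure D1:**
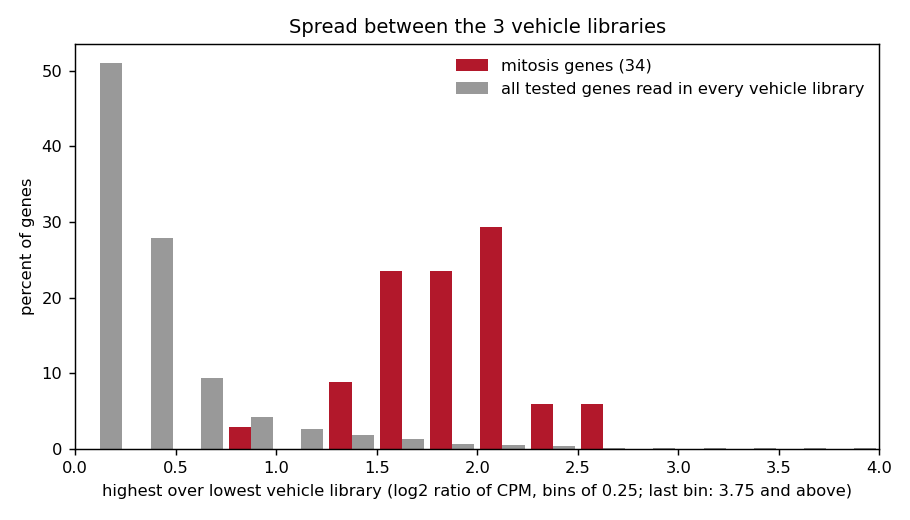
Percent of genes (vertical axis) by the log2 ratio of the highest to the lowest of the 3 vehicle libraries (horizontal axis, bins of 0.25) for the 34 mitosis genes in red and all tested genes read in every vehicle library in grey. The red bars centre near the median ratio of 3.80, and the grey bars pile up near the median of 1.18.

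After PMA every one of the mitosis genes that was present in the tables was lower than with vehicle at both times. At 6 h, 34 of 34 passed as lower, against 39.0% of all 10128 tested genes, with a median log2 fold change of -4.89 beside -0.03 over all tested genes (edgeR's quasi-likelihood test, Benjamini-Hochberg adjusted p under 0.05). At 12 h, 34 of 34 passed as lower, against 38.2% of all tested genes, with a median of -5.45 beside -0.02. None passed as higher at either time, where 37.8% and 37.7% of tested genes did, and none had an unadjusted p under 0.05 in that direction in edgeR, DESeq2 or limma-voom. All 6 PMA libraries lay below all 3 vehicle libraries for 33 genes, and at 6 h Aurka overlapped. Groups lay apart on the low side for 40.3% of tested genes at 6 h and 40.0% at 12 h. All 34 genes passed the filter on low counts, 12 of them through the vehicle libraries alone, so those 12 had to differ and the counts are given as a description. The list was also chosen with earlier results of these data known. Cdc20, Ccnf and Cks2, described below and higher at 6 h, stand outside it. Both comparisons share the 3 vehicle libraries. In limma-voom, an alternative test, 29 genes passed as lower at 6 h and 25 at 12 h. At 6 h Ccnb2, Aurka, Foxm1, Cenpf and Nusap1 did not pass there (adjusted p of 0.057 to 0.12). At 12 h Ccna2, Ccnb1, Ccnb2, Foxm1, Ndc80, Cenpf, Tpx2, Nusap1 and Ube2c did not (adjusted p of 0.051 to 0.13).

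The summed level of the 34 genes was 714 to 2550 CPM with vehicle, 104, 102 and 103 CPM at 6 h and 75.9, 95.6 and 74.4 CPM at 12 h. The few genes with the most reads after PMA, among them Tpx2, Kif23 and Prc1, weigh most in it. Gene by gene, the highest PMA library was 2 or more times the lowest for 47.1% of the 34 genes at 6 h and 41.2% at 12 h, against 10.7% and 9.5% of all tested genes, with few reads of many of them. The gene-by-gene level left at 6 h had a median of 3.39% of the vehicle mean, with 8 genes under 1%, 20 under 5% and 6 over 10%. At 12 h the median was 2.33%, with 9 genes under 1%, 27 under 5% and 5 over 10%. The highest PMA library stood at a median of 9.45% of the lowest vehicle library at 6 h and 5.93% at 12 h. It was 108% for Aurka at 6 h, the one overlap, and at most 85.2%, for Tpx2, at 12 h. With vehicle replicate 1, the lowest one, as the only vehicle library (an alternative chosen after seeing the data), 32 genes passed as lower at 6 h and 33 at 12 h, with medians of -3.86 and -4.55. Aurka at -0.10 and Foxm1 at -0.38 did not pass at 6 h, nor Nusap1 at -0.73 at 12 h. Without TMM factors, with only the plain library totals used, the median of all tested genes moved to -0.57 at 6 h and -0.60 at 12 h. The mitosis genes then stood at medians of -5.42 and -6.02. Values given below as without scaling come from this setting.

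**Figure D2:**
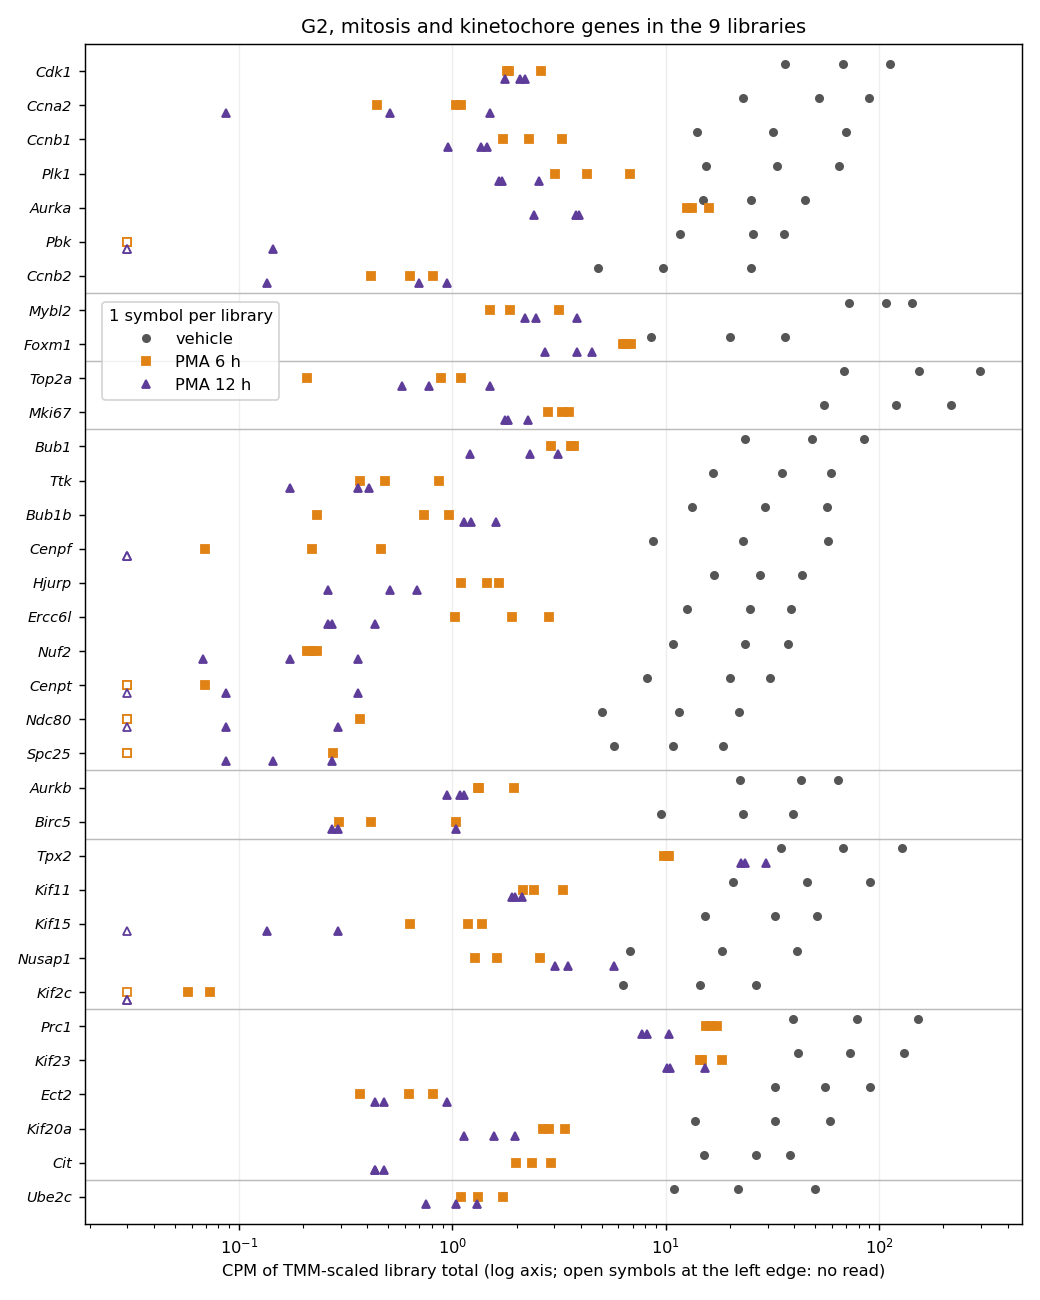
Level of each of the 34 mitosis genes in each of the 9 libraries, in CPM of the scaled library total on a log axis, with 1 symbol per library and open symbols at the left edge where no read was counted. The vehicle symbols lie to the right of the PMA symbols in every row, except that Aurka overlaps at 6 h.

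Among the cyclins and kinases of mitotic entry, 7 of 7 were lower at both times. Cdk1, the kinase that drives entry, had 36.0, 67.4 and 112 CPM with vehicle, 1.80, 1.84 and 2.60 CPM at 6 h and 1.77, 2.18 and 2.08 CPM at 12 h. Its PMA libraries lay close together and far below every vehicle library, with log2 fold changes of -5.09 ± 0.49 (SE, n = 3 per group, adjusted p = 3.1e-05) at 6 h and -5.16 ± 0.50 (adjusted p = 3.4e-05) at 12 h in edgeR's quasi-likelihood test. Ccna2, the cyclin of S phase and G2, had 23.0, 52.3 and 89.9 CPM with vehicle, 1.04, 0.441 and 1.10 CPM at 6 h and 1.5, 0.508 and 0.0867 CPM at 12 h, and the groups with PMA overlapped each other far below vehicle. Its log2 fold changes were -5.96 at 6 h and -6.19 at 12 h, the second -7.41 without PMA 12 h replicate 1. Ccnb1 and Ccnb2, the B-type cyclins that pair with Cdk1, fell to 6.29% and 4.69% of the vehicle mean at 6 h and to 3.26% and 4.48% at 12 h. Plk1, the Polo kinase of entry and spindle assembly, had 15.5, 33.2 and 64.7 CPM with vehicle, 3.04, 4.26 and 6.76 CPM at 6 h and 1.70, 2.54 and 1.65 CPM at 12 h. The Plk1 log2 fold changes were -2.99 ± 0.58 and -4.25 ± 0.65. Without vehicle replicate 3 the log2 fold changes at 6 h and 12 h were -3.26 and -4.17 for Ccnb1 (-3.99 and -4.91 with it), -3.54 and -3.63 for Ccnb2 (-4.39 and -4.49) and -2.36 and -3.62 for Plk1, all still past the threshold.

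Aurka and Pbk stood at the ends of this group. Aurka, the kinase of centrosomes and spindle poles, had 14.9, 25.1 and 44.9 CPM with vehicle, 12.5, 16.0 and 13.2 CPM at 6 h and 3.81, 2.40 and 3.90 CPM at 12 h. Its 6 h libraries overlapped the lowest vehicle library and its 12 h libraries lay below both groups. The log2 fold change was -1.02 ± 0.36 (adjusted p = 0.03) at 6 h and -3.07 ± 0.43 (adjusted p = 0.00016) at 12 h in edgeR's quasi-likelihood test. The first did not pass without any 1 of the 3 PMA 6 h libraries (-0.95, -1.13 and -0.99 without replicates 1, 2 and 3) or without PMA 12 h replicate 3 (-1.02), nor with no filter on low counts (-1.03), in the fit to the 2 groups (-1.01) or in limma-voom (-0.85). Pbk, a mitotic kinase also named TOPK, had 11.7, 25.7 and 35.9 CPM with vehicle, or 1544 reads over the group. No Pbk read was counted in the 3 libraries at 6 h, which makes it at least 358-fold lower than with vehicle (floor of 3 reads over the group), or at least 221-fold without PMA 6 h replicate 3. At 12 h 2 reads were counted, a ratio of vehicle to PMA of 473 (95% exact counting interval 131 to 3910, which covers counting error only). Both reads were in PMA 12 h replicate 2, without which Pbk was at least 207-fold lower; without replicate 1 the ratio was 299.

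Both activators of the late cell cycle genes fell, to different depths. Mybl2, which encodes B-Myb, had 72.0, 107 and 143 CPM with vehicle, 1.87, 3.16 and 1.5 CPM at 6 h and 2.18, 2.47 and 3.82 CPM at 12 h. The PMA groups overlapped each other and lay far under vehicle, with log2 fold changes of -5.65 ± 0.36 (adjusted p = 7.7e-07) and -5.27 ± 0.35 (adjusted p = 1.1e-06) in edgeR's quasi-likelihood test. Foxm1 had 8.5, 20 and 36.0 CPM with vehicle, 6.85, 6.54 and 6.30 CPM at 6 h and 2.72, 4.50 and 3.82 CPM at 12 h. All 6 PMA libraries were below the lowest vehicle library, which the highest 6 h library reached to 80.6%. The log2 fold change of Foxm1 was -1.71 ± 0.47 (adjusted p = 0.0099) at 6 h, or -1.12 without vehicle replicate 3, and -2.54 ± 0.51 (adjusted p = 0.0018) at 12 h. In limma-voom its values were -1.43 and -2.30, and neither passed (adjusted p = 0.10 and 0.058).

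The chromosome proteins Mki67 and Top2a were among the deep falls. Mki67 had 55.2, 120 and 217 CPM with vehicle, 3.25, 2.79 and 3.53 CPM at 6 h and 1.77, 1.82 and 2.25 CPM at 12 h, with log2 fold changes of -5.34 and -6.07. Top2a had 68.2, 154 and 296 CPM with vehicle, 0.208, 0.881 and 1.10 CPM at 6 h and 1.5, 0.581 and 0.780 CPM at 12 h. Its mean was 237-fold lower than with vehicle at 6 h and 181-fold lower at 12 h, from 34 and 39 reads against 10740 reads with vehicle. The fitted values of Top2a were -7.84 ± 0.85 (adjusted p = 0.00013) and -7.46 ± 0.84 (adjusted p = 0.00016) in edgeR's quasi-likelihood test, and -7.20 and -6.82 without vehicle replicate 3.

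At the kinetochore and in the spindle checkpoint 10 of 10 measured genes were lower at both times. The microtubule-binding Ndc80 complex, represented by Ndc80, Nuf2 and Spc25, was close to the limit of counting after PMA, with 5, 10 and 4 reads over the 3 libraries at 6 h and 5, 8 and 7 reads at 12 h, against 801, 1503 and 732 reads with vehicle. Nuf2 had 10.8, 23.6 and 37.3 CPM with vehicle, 0.208, 0.22 and 0.231 CPM at 6 h and 0.0680, 0.363 and 0.173 CPM at 12 h, and its mean was 109-fold and 119-fold lower at the 2 times. With so few reads, leaving out 1 PMA library moved the fitted fold of each of these genes by more than 1.5 times in at least 1 comparison. Nuf2 at 12 h was at -7.61 without PMA 12 h replicate 2, beside -6.84. Spc25 at 6 h was at -10.63 without PMA 6 h replicate 1 and -6.29 without replicate 3, beside -6.92. Ndc80 at 6 h was at -10.78 without PMA 6 h replicate 2 and -6.12 without replicate 3 or without vehicle replicate 3, beside -6.76. At 12 h Ndc80 was at -5.97 and -8.14 without PMA 12 h replicates 1 and 2 and -5.96 without vehicle replicate 3, beside -6.60.

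Cenpf, a large protein of the outer kinetochore, had 8.72, 23.0 and 57.5 CPM with vehicle and 0.0692, 0.22 and 0.463 CPM at 6 h. No Cenpf read was counted in the 3 libraries at 12 h, against 1820 reads with vehicle, which makes it at least 372-fold lower. That bound was 212 without vehicle replicate 3 and 235 and 244 without PMA 12 h replicates 1 and 2, and the 12 h call did not pass in the fit to the 2 groups (adjusted p = 0.051). Cenpt, which ties the inner kinetochore to the Ndc80 complex, had 8.20, 20 and 30.9 CPM with vehicle and a single read over the 3 libraries at 6 h, a ratio of vehicle to PMA of 860 (95% exact counting interval 154 to 34000). The ratio was 532 without PMA 6 h replicate 3, and without replicate 1, which held the read, Cenpt was at least 195-fold lower. It had 6 reads at 12 h. The checkpoint genes held more reads: Bub1, a checkpoint kinase, had 2.91, 3.60 and 3.70 CPM at 6 h and 2.31, 3.12 and 1.21 CPM at 12 h, against 23.5, 48.5 and 85.1 CPM with vehicle. Bub1b, the BubR1 component of the checkpoint, was at 1.95% of the vehicle mean at 6 h and 3.98% at 12 h, and Ttk, the Mps1 kinase, at 1.55% and 0.852%. The log2 fold changes of Bub1b were -5.71 and -4.63, and -5.07 and -3.99 without vehicle replicate 3.

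Hjurp and Ercc6l stood at intermediate levels at 6 h. Hjurp, the chaperone that deposits the centromere histone CENP-A, had 16.9, 27.7 and 43.6 CPM with vehicle, 1.66, 1.10 and 1.45 CPM at 6 h and 0.680, 0.508 and 0.260 CPM at 12 h, with log2 fold changes of -4.37 and -5.86. Ercc6l, the PICH translocase of stretched anaphase DNA, had 12.5, 24.7 and 38.7 CPM with vehicle, 2.84, 1.03 and 1.91 CPM at 6 h and 0.272, 0.436 and 0.260 CPM at 12 h, with log2 fold changes of -3.70 and -6.25. For both genes the 3 groups did not overlap. The calls between the times, given further on, were lost without most single PMA libraries.

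Both chromosomal passenger genes of the list fell at both times. Aurkb, the kinase that corrects faulty attachments, had 22.3, 43.1 and 64.4 CPM with vehicle, 1.94, 1.32 and 1.33 CPM at 6 h and 1.09, 0.944 and 1.13 CPM at 12 h. In log2 fold change, Aurkb stood at -4.82 ± 0.42 and -5.35 ± 0.45. Birc5, which encodes survivin of the same complex, was at 2.42% of the vehicle mean at 6 h and 2.22% at 12 h, from 28 and 20 reads. Its log2 fold changes of -5.28 and -5.55 were -6.06 without PMA 6 h replicate 3 and -6.38 without PMA 12 h replicate 3, the libraries with most of those reads.

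The spindle genes held both some of the deepest and, in Tpx2, the shallowest fall at 12 h. Kif2c, the kinesin that takes microtubules apart at centromeres, had 6.30, 14.4 and 26.4 CPM with vehicle. It had 2 reads over the libraries at 6 h, a ratio of vehicle to PMA of 340 (95% exact counting interval 93.9 to 2810), and none at 12 h, at least 200-fold lower. The ratio at 6 h was 232 to 476 without 1 library, and the bound at 12 h was 127 to 264, the lowest without PMA 12 h replicate 1. Kif15, a plus-end kinesin of the spindle, had 15.3, 32.5 and 51.0 CPM with vehicle, 1.38, 1.18 and 0.636 CPM at 6 h and 0.136, 0.291 and 0 CPM at 12 h. Its log2 fold changes were -4.97 and -7.71, the second -8.62 without PMA 12 h replicate 2. Kif11, the Eg5 motor that pushes spindle poles apart, was at 5.03% and 3.82% of the vehicle mean, with log2 fold changes of -4.29 and -4.70 that were -3.65 and -4.05 without vehicle replicate 3.

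Tpx2, the activator of Aurora A on spindle microtubules, kept the highest share of its vehicle level at 12 h. It had 34.5, 67.4 and 128 CPM with vehicle, 10.4, 9.77 and 10.2 CPM at 6 h and 23.6, 29.4 and 22.5 CPM at 12 h. Its 12 h libraries lay above all 6 h libraries and below all vehicle libraries, with log2 fold changes against vehicle of -2.92 ± 0.49 (adjusted p = 0.0012) at 6 h and -1.60 ± 0.45 (adjusted p = 0.015) at 12 h in edgeR's quasi-likelihood test. The 6 h value was -2.33 without vehicle replicate 3, and the 12 h value did not pass without PMA 12 h replicate 3 (-1.53). Nusap1, a microtubule bundler of the central spindle, had 6.78, 18.3 and 41.1 CPM with vehicle, 2.56, 1.62 and 1.27 CPM at 6 h and 3.47, 5.74 and 3.03 CPM at 12 h, in the same order of groups as Tpx2. Its log2 fold changes were -3.60 ± 0.74 (adjusted p = 0.0031) and -2.42 ± 0.68 (adjusted p = 0.014); they were -2.80 and -1.61 without vehicle replicate 3, and the 12 h fall did not pass without PMA 12 h replicate 1 (-2.30) or replicate 3 (-2.25).

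The central spindle and cytokinesis genes fell less than the kinetochore genes by their medians, -3.45 over 5 genes against -6.33 over 10 at 6 h and -4.46 against -6.42 at 12 h, a difference that was not tested. Prc1, the bundler of the central spindle, had 39.5, 78.3 and 152 CPM with vehicle, 15.4, 17.3 and 16.3 CPM at 6 h and 8.17, 10.4 and 7.72 CPM at 12 h. Kif23, the centralspindlin motor, had 41.8, 72.6 and 131 CPM with vehicle, 18.3, 14.8 and 14.5 CPM at 6 h and 10.1, 15.2 and 10.5 CPM at 12 h. Prc1 and Kif23 kept 18.2% and 19.3% of the vehicle mean at 6 h, with PMA libraries well below the lowest vehicle library. Kif20a, a kinesin that carries the passenger complex to the midzone, was at 8.48% and 4.45% of the vehicle mean. Ect2, the exchange factor that turns on RhoA at the cleavage plane, fell further. It had 0.623, 0.367 and 0.809 CPM at 6 h and 0.476, 0.944 and 0.434 CPM at 12 h, against 32.5, 55.9 and 90.9 CPM with vehicle, 1.00% and 1.03% of the vehicle mean. Cit, the citron kinase of the midbody, had 15.1, 26.5 and 38.3 CPM with vehicle, 2.91, 1.98 and 2.37 CPM at 6 h and 0.476, 0.436 and 0.434 CPM at 12 h. For Cit the log2 fold changes were -3.45 ± 0.30 and -5.86 ± 0.39. Ube2c, the ubiquitin-conjugating enzyme of the anaphase-promoting complex, was at 5.04% and 3.76% of the vehicle mean. Without vehicle replicate 3 the log2 fold changes at 6 h and 12 h were -1.86 and -2.75 for Prc1 (-2.46 and -3.35 with it), -2.97 and -3.87 for Kif20a (-3.56 and -4.46) and -3.57 and -3.98 for Ube2c (-4.31 and -4.73).

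**Figure D3:**
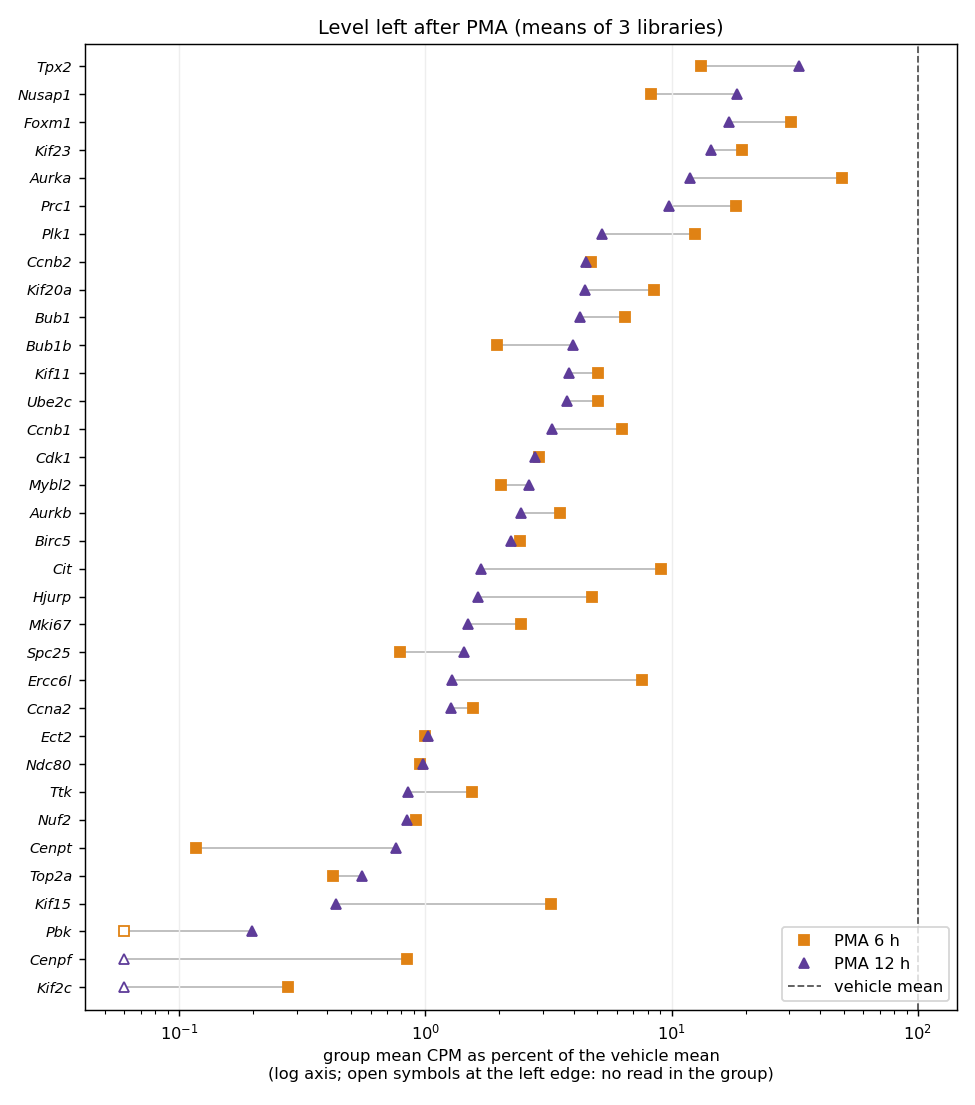
Mean level of each mitosis gene after PMA as percent of its vehicle mean, on a log axis, with squares for 6 h, triangles for 12 h, open symbols for groups with no read and a dashed line at the vehicle mean. Tpx2 at 32.8% and Aurka at 49.2% are the highest points at 12 h and 6 h, and Pbk, Cenpf and Kif2c reach the left edge.

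The counts were made without regard to strand. In the RefSeq annotation of GRCr8, 10 of the genes overlap a protein-coding gene. The pairs are Aurka with Fam210b, Plk1 with Ern2, Foxm1 with Tex52, Spc25 with Nostrin and Cenpt with Tsnaxip1. Hjurp overlaps Mroh2a and Trpm8, Kif11 overlaps Ide, Kif15 overlaps RGD1311745, Nusap1 overlaps Ndufaf1 and Kif20a overlaps Cdc23. How reads in these overlaps were assigned, and whether reads of such partners have a part in the levels, was not tested.

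Between 12 h and 6 h of PMA few of the mitosis genes passed the test. In the fit to all 9 libraries 4 of 34 passed as lower at 12 h, against 25.8% of all tested genes, and none passed as higher, against 25.3%. The median log2 fold change was -0.41 beside 0.01 over all tested genes. At an unadjusted p under 0.05, 5 were lower and 1, Tpx2, was higher, and DESeq2 called 6 lower and 1 higher. Cit had 0.476, 0.436 and 0.434 CPM at 12 h, against 2.91, 1.98 and 2.37 CPM at 6 h, a log2 fold change of -2.41 ± 0.48 (adjusted p = 0.00078 in edgeR's quasi-likelihood test). Aurka had 3.81, 2.40 and 3.90 CPM at 12 h, against 12.5, 16.0 and 13.2 CPM at 6 h, a log2 fold change of -2.05 ± 0.43 (adjusted p = 0.0041). Ercc6l at -2.55 ± 0.78 (adjusted p = 0.022) and Hjurp at -1.49 ± 0.57 (adjusted p = 0.044) also passed, from 13 and 20 reads at 12 h against 88 and 64 reads at 6 h. Without 1 library, Hjurp did not pass for any of the 6 PMA libraries left out (-1.81 to -1.23), and Ercc6l did not pass for 5 of them (-2.82 to -2.18), all but PMA 6 h replicate 2. With no filter on low counts Hjurp (adjusted p = 0.067) and Ercc6l (adjusted p = 0.053) did not pass, and in limma-voom none of the 4 did, at adjusted p of 0.087 for Aurka, 0.24 for Cit, 0.39 for Ercc6l and 0.49 for Hjurp. Groups lay apart on the low side for 14 genes, against 29.6% of tested genes, and on the high side for 3, Tpx2, Nusap1 and Bub1b, against 28.5%.

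The spread between vehicle libraries enters that fit, so the 6 PMA libraries were also fitted on their own. There 22 of the 34 genes had enough reads to be tested, 8 passed as lower at 12 h, against 26.8% of the 9684 genes tested, and 2 passed as higher, against 26.1%. The lower ones were the 4 above with Plk1 at -1.26 ± 0.34 (adjusted p = 0.0048), Prc1 at -0.89 ± 0.16 (adjusted p = 2e-04), Foxm1 at -0.83 ± 0.24 (adjusted p = 0.0072) and Kif20a at -0.91 ± 0.34 (adjusted p = 0.034). The higher ones were Tpx2, at 23.6, 29.4 and 22.5 CPM at 12 h against 10.4, 9.77 and 10.2 CPM at 6 h, with a log2 fold change of 1.32 ± 0.14 (adjusted p = 1.3e-06 in edgeR), and Nusap1 at 1.18 ± 0.35 (adjusted p = 0.0094). In the fit to 9 libraries the same quantities were 1.31 ± 0.50 (adjusted p = 0.066) for Tpx2 and 1.19 ± 0.81 (adjusted p = 0.27) for Nusap1. Cdk1 at -0.06 ± 0.35 and Top2a at 0.38 ± 0.59 did not pass, which does not show that they stayed level. The 12 genes not tested there, among them Ccnb2, Ttk, Ndc80, Birc5 and Ect2, had too few reads after PMA.

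**Figure D4:**
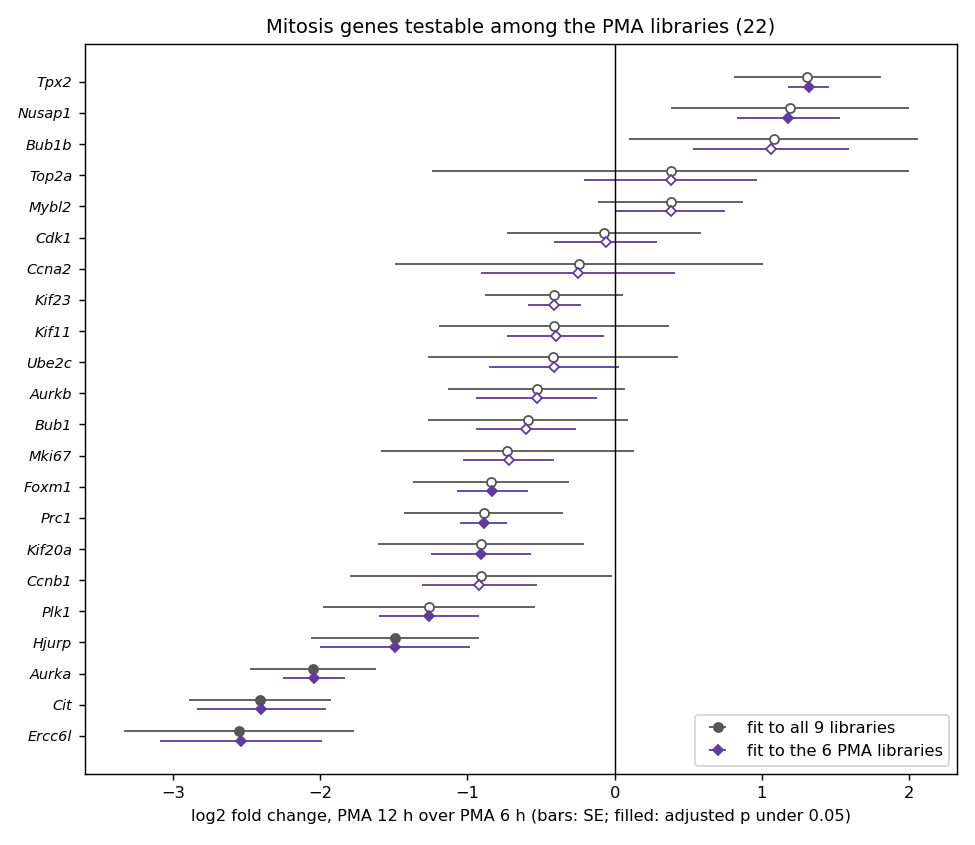
Log2 fold change of PMA 12 h over PMA 6 h for the 22 mitosis genes that could be tested among the PMA libraries, with circles for the fit to all 9 libraries, diamonds for the fit to the 6 PMA libraries, bars for the SE and filled symbols past an adjusted p of 0.05. The estimates of both fits nearly coincide, the bars of the second are shorter, and Aurka, Cit, Ercc6l and Hjurp are filled in both.

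Other genes of mitosis outside the list were counted the same way, and their counts stand beside 39.0% of all tested genes lower and 37.8% higher at 6 h, and 38.2% and 37.7% at 12 h. Of the genes tested, 5 other kinetochore and centromere genes, 6 other spindle and cytokinesis genes, 1 gene of condensin, cohesin and separase (Cdca5) and 2 other regulators of entry (Cdca3 and Mastl) passed the filter through the vehicle libraries alone. They had to differ, so those lists' counts are a description. Of other kinetochore and centromere genes, 29 of 40 were tested. Of these, 24 were lower and 1 higher at 6 h, and 26 lower and 1 higher at 12 h, with medians of -2.30 and -2.89. Cenpa, the centromere histone that Hjurp loads, had 241 reads with vehicle, 15 at 6 h and 0 at 12 h; Cenpw had 358, 1 and 0 reads; and Sgol2, a protector of centromere cohesion, 163, 6 and 0 reads. Of other spindle and cytokinesis genes, 22 of 31 were tested. Of these, 21 were lower and 0 higher at 6 h, with 0 higher also at an unadjusted p under 0.05 in edgeR, DESeq2 and limma-voom. At 12 h 21 were lower and 1 higher, and the medians were -3.79 and -4.29. Depdc1b had 256 reads with vehicle and none in either PMA group, Depdc1 had 802, 1 and 3 reads, and Troap 408, 8 and 2 reads. Of condensin, cohesin and separase genes, 12 of 18 were tested, with 9 and 11 lower and 2 and 1 higher at the 2 times and medians of -1.13 and -1.31. Espl1, which encodes separase, had log2 fold changes of -5.56 at 6 h and -5.74 at 12 h, and Cdca5, which encodes sororin, of -4.81 and -5.79. Ncapd3 of condensin II had log2 fold changes of -3.81 (-4.52 without PMA 6 h replicate 3) and -5.01. The few that were higher were Cenpl at 6 h (0.53), Cenpc at 12 h (0.53), Numa1 at 12 h (0.37), Rad21 at 6 h (0.53) and 12 h (0.31) and Pds5a at 6 h (0.21). Each of these values was 0 or less without TMM factors. Cenpl also did not pass without any 1 of 5 libraries (0.33 without vehicle replicate 1, 0.52 without vehicle replicate 2, 0.46 and 0.43 without PMA 6 h replicates 1 and 3 and 0.53 without PMA 12 h replicate 1). Rad21 at 12 h did not pass without vehicle replicate 1 (0.21) or PMA 12 h replicate 1 (0.24). Pds5a at 6 h did not pass without vehicle replicate 1 (0.18), vehicle replicate 2 (0.18) or PMA 6 h replicate 3 (0.13). At 12 h Pds5a was among the lower genes, at -0.41.

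Of 14 other regulators of entry, 10 were lower and 2 higher at 6 h and 11 lower and 0 higher at 12 h, with medians of -1.72 and -2.76. At an unadjusted p under 0.05 edgeR and DESeq2 had 0 higher and limma-voom 2 at 12 h. Cdca3, Mastl and Melk were the largest falls of that list at 12 h. Mastl, the Greatwall kinase, had 14.2, 22.2 and 35.8 CPM with vehicle, 0.208, 0.22 and 0.636 CPM at 6 h and 0.136, 0.726 and 0.347 CPM at 12 h. Melk had 12.8, 21.9 and 35.7 CPM with vehicle, 1.45, 3.38 and 2.14 CPM at 6 h and 0.340, 0.726 and 0.434 CPM at 12 h. Cdca3 had 10.5, 22.6 and 56.0 CPM with vehicle, at most 0.208 CPM at 6 h and at most 0.726 CPM at 12 h. Ccnf and Cks2 were higher at 6 h by 1.07 ± 0.31 and 0.93 ± 0.29 on the log2 scale, but neither passed without vehicle replicate 2 (0.98 and 0.88), and Cks2 did not pass without PMA 6 h replicate 1 (0.80) or 2 (0.89) either.

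The lists of the anaphase-promoting complex and of the DREAM and MuvB complexes had medians near 0, far from that of the mitosis genes, a difference that was not tested. Of 17 tested genes of the anaphase-promoting complex, 8 were lower and 5 higher at 6 h and 8 lower and 6 higher at 12 h, with medians of -0.12 and -0.14. These counts lie near the 39.0% and 37.8% of all tested genes lower and higher at 6 h and the 38.2% and 37.7% at 12 h. Cdc20, its mitotic activator and itself a late cell cycle gene, had 29.1, 58.0 and 121 CPM with vehicle, 771, 822 and 727 CPM at 6 h and 801, 650 and 745 CPM at 12 h. All PMA libraries of Cdc20 lay above all vehicle libraries, and among the vehicle libraries it had the same order as the 34 mitosis genes. Its log2 fold changes were 3.48 ± 0.50 at 6 h and 3.40 ± 0.50 (adjusted p = 0.00067) at 12 h in edgeR's quasi-likelihood test, and 4.15 and 4.07 without vehicle replicate 3. The counts ignore strand, and overlapping genes were looked up only for the 34 mitosis genes. Whether reads of another gene have a part in the rise of Cdc20 was not tested. Fbxo5, the inhibitor Emi1, had 8.03, 15.5 and 23.8 CPM with vehicle, 0.899, 1.18 and 1.5 CPM at 6 h and 0.612, 0 and 0.520 CPM at 12 h. The subunit genes Anapc1 and Cdc26 had log2 fold changes of -1.47 and -1.37 at 6 h and of -1.75 and -1.53 at 12 h. Anapc2 and Cdc27 were higher by 0.88 and 1.40 at 6 h and by 1.22 and 0.61 at 12 h. Anapc7 was higher by 0.62 and 0.60, and Anapc11 by 0.53 (0 without scaling) and 0.72. Anapc13 was higher at 12 h, by 0.44, a value that was -0.14 without scaling and did not pass without vehicle replicate 1 (0.41), vehicle replicate 2 (0.40) or PMA 12 h replicate 1 (0.31).

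On the list of the DREAM and MuvB complexes, which takes in related factors such as E2f7, 10 genes were tested. Of these, 5 were lower and 4 higher at 6 h and 5 lower and 2 higher at 12 h. The medians were -0.14 and -0.17, and the shares are read against the same background. E2f7, a repressor of the cell cycle, had 7.55, 11.3 and 15.1 CPM with vehicle, 1.73, 3.38 and 3.06 CPM at 6 h and 1.36, 0.654 and 0.694 CPM at 12 h. Rbl1, the pocket protein p107, and Tfdp1, the partner of E2F factors, had log2 fold changes of -1.36 and -1.42 at 6 h and of -1.55 and -1.44 at 12 h. Lin37, a MuvB subunit needed for repression, was higher by 1.77 ± 0.12 at 6 h and 0.94 ± 0.12 at 12 h, and Lin54, the subunit that contacts the CHR element, by 0.66 ± 0.20 at 6 h. E2f4 and Rbbp4 were higher at 6 h by 0.30 and 0.28, and stood at -0.24 and -0.25 without scaling. Rbbp4 at 6 h also did not pass without vehicle replicate 1 (0.19), vehicle replicate 2 (0.30), PMA 6 h replicate 1 or 2 (0.26 each) or PMA 12 h replicate 1 (0.28). At 12 h Rbbp4 was lower (-0.36), a call lost without vehicle replicate 3 (-0.29) or PMA 12 h replicate 2 (-0.25). Mybl1, the A-Myb relative of Mybl2, was lower at 6 h and higher at 12 h, at log2 fold changes of -0.54 ± 0.13 and 0.84 ± 0.12.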

How the data were processed

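RNA-seq reads of 9 libraries were aligned with STAR 2.7.5b to rn6, per the submitters' processing notes; no source names the gene annotation. The deposited STAR tables hold raw counts per gene, and their unstranded column was used as the authors deposited it, without the 4 summary lines. Genes in the tables took 67.8% to 71.3% of each library's listed reads. The deposited normalized table was not used.

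Counts were filtered with filterByExpr (minimum count 10), scaled by TMM and tested with edgeR 4.0.16 (glmQLFit, glmQLFTest) in R 4.3.3 on all 9 libraries with group as the only term. Adjusted p-values are Benjamini-Hochberg over all 10128 genes that passed; the threshold was 0.05. CPM are counts per 1000000 of the library total multiplied by its TMM factor. These factors were 1.28 to 1.31 with vehicle, 0.879 to 0.911 at 6 h and 0.848 to 0.88 at 12 h. An SE is the log2 fold change over the square root of its F statistic. Levels are not per gene length, so they are not compared between genes. Intervals of read ratios are 95% exact binomial, and a group without reads was set to a floor of 3 reads. DESeq2 1.42.0, limma-voom 3.58.1, other scalings, no filter, fits to pairs of groups, a replicate term and left-out libraries were alternatives. Replicate libraries differed by more than sampling noise (chi-square per degree of freedom 3.94 to 28.9). Promoter sequences are RefSeq's for GRCr8, not the build of the counts.

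The members and lists were chosen with earlier results of these data known. Named genes are the members and, from each other list, the 3 largest falls and rises at 12 h called alike at both times, Cdc20, and genes called against the direction of most of their list.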

Additional observations from a re-analysis of the deposited data

Results flagged for a closer look

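For 4 of the mitosis genes the change against vehicle differed between the times, by the test of PMA 12 h against PMA 6 h in edgeR's fit to all 9 libraries. The log2 fold change between the times was -2.05 for Aurka, -1.49 for Hjurp, -2.55 for Ercc6l and -2.41 for Cit. All 3 libraries at 12 h lay below all 3 at 6 h for each of them. The calls of Hjurp and Ercc6l rest on 20 and 13 reads at 12 h, against 64 and 88 reads at 6 h, and both were lost without most single PMA libraries. The Aurka and Cit calls held without each library, and none of the 4 passed in limma-voom.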

How the results depend on the processing

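Against vehicle, the number of mitosis genes called lower ranged from 29 to 34 at 6 h and from 25 to 34 at 12 h over all alternatives, with limma-voom the lowest at both times, and 0 were called higher. Leaving out 1 library moved the fitted fold of 18 genes at 6 h, 19 at 12 h and 9 between the times by over 1.5 times, mostly vehicle replicate 3 or a PMA library of genes with few reads. The 4 calls lower at 12 h against 6 h became 2 with no low-count filter, 0 with limma-voom (1 at an unadjusted p under 0.05), 8 in the fit to the 2 groups and 12 with vehicle replicate 1 as the only vehicle library (chosen after seeing the data), and 2 to 9 when 1 library was left out. The 0 calls higher became 1 with DESeq2's test, 2 in the fit to the 2 groups, 2 with that only vehicle library, and 0 to 2 with 1 library left out. Same-numbered libraries did not deviate together (r from -0.11 to 0.03 over 9 pairs, others -0.07 to 0.09), so the numbers were not taken as pairs; a replicate block gave 7 lower and 1 higher between the times and changed no count against vehicle. The median vehicle ratio of 3.80 was 3.78 with DESeq2's size factors, 3.67 with upper-quartile scaling and 3.73 without scaling, and 1.79 to 3.80 with 1 vehicle library left out.

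Among the other genes named, some directions turned with the scaling. With upper-quartile scaling the log2 fold change was -0.24 for Numa1 and -0.04 for Pds5a at 6 h and -0.24 for E2f4 at 12 h. Without scaling it was 0 for Cenpl and Anapc11, -0.52 for Numa1, -0.01 for Rad21, -0.32 for Pds5a, -0.53 for Anapc13, -0.25 for Rbbp4 and -0.24 for E2f4 at 6 h, and -0.05 for Cenpc, -0.21 for Numa1, -0.27 for Rad21, -0.14 for Anapc13 and -0.55 for E2f4 at 12 h. No mitosis gene of the list turned against vehicle. Where a PMA group holds fewer than about 10 reads of a gene, depth limits its fold to an order of size.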
